A study of Mus musculus with 16 samples.

Results

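Rbfox1, Rbfox2 and Rbfox3 encode the 3 RBFOX proteins, and their H3K27me3 was followed in mouse embryonic stem cells (mESCs) around induction of Firre, a long non-coding RNA. The genes were taken with every consensus peak that overlapped the mm10 gene span with 2 kb on either side, which gave 102 of 102957 peaks: 87 at Rbfox1, 15 at Rbfox3 and 0 at Rbfox2. The nearest peaks outside this window lay 9750 bp from Rbfox1, 11636 bp from Rbfox3 and 15251 bp from Rbfox2. Rbfox3 was chosen by its induction value, since its summed H3K27me3 rose after Firre induction in an earlier analysis of the same files, and Rbfox1 and Rbfox2 are the rest of its family. The induction values are therefore a description without a test.

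RBFOX proteins bind the RNA element GCAUG and set whether nearby exons are included or skipped. RBFOX1 acts in neurons, heart and skeletal muscle, RBFOX2 is expressed broadly and also in embryonic stem cells, and RBFOX3 is the nuclear antigen NeuN by which mature neurons are recognised. H3K27me3 is the histone mark that Polycomb repressive complex 2 (PRC2) places at silenced developmental genes, in embryonic stem cells above all around CpG-rich promoters.

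The design was 4 lines sampled at 0 h and 48 h of doxycycline, with 1 H3K27me3 and 1 input library per condition and so 8 libraries per assay. WT control were cells of WT genotype, and WT transgene the same genotype carrying Firre under doxycycline control. KO control carried the label Firre KO, and KO transgene combined that label with inducible Firre. All were grown on gelatin with serum, LIF and the inhibitors PD0325901 and CHIR99021, and doxycycline is given as the treatment of all 16 libraries. The transgene's promoter and insertion site, the deleted segment and the number of clones are not stated in these sources. Replicate cultures are not labelled either, so p-values measure the spread among these libraries, which may be technical, and the times of a line enter as separate libraries. In some fits below that spread was little more than counting error. Between 10380781 and 14787938 counts per H3K27me3 library, and between 3340654 and 6244333 per input library, fell in consensus peaks. As a check of the labels, the 1 peak inside Firre had 3 and 6 input counts in WT control at 0 h and 48 h, against 37 and 73 in KO control. With both times summed this was 0.694 times the mean of chromosome X peaks per width in WT control (95% exact Poisson interval 0.317 to 1.32). It was 14.9 times in WT transgene (12.9 to 17.1), 10.7 times in KO transgene (8.94 to 12.6) and 11.1 times in KO control (9.11 to 13.4). A line with neither gene nor transgene should not exceed WT control, so its name here is the line labelled KO control. Results at Rbfox1 and Rbfox3 that rest on it were also computed without it. KO against WT values of other genes, in the lists and neighbourhoods below, are given with it only. Of 12 embryonic stem cell genes, 10 had no peak, among them Pou5f1, Nanog and Sox2, while 13 of 16 genes of mature neurons had one, beside 20257 of 34328 genes in all. This is the pattern of a mark and does not measure expression.

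The promoter sequences are shown because CpG density is the sequence feature linked to PRC2 recruitment, and the choice of genes did not use it. RefSeq's promoter table (GRCm38.p6, the same build as mm10) held 2 windows for Rbfox1 and 1 for Rbfox3. The 250 bases upstream of each start are printed 5′ to 3′ on the strand of the gene, with the dinucleotide CG in capitals.
Rbfox1, first start (chr16:5884543-5884792, plus strand): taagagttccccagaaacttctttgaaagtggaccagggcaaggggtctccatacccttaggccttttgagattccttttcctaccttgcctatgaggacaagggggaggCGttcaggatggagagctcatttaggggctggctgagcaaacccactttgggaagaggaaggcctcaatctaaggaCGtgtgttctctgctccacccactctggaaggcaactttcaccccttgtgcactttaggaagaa
Rbfox1, second start (chr16:7069585-7069834, plus strand): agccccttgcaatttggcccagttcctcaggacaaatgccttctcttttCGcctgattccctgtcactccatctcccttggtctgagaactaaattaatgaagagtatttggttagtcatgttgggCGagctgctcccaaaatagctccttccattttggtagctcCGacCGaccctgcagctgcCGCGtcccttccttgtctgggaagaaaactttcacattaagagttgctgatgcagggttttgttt
Rbfox3 (chr11:118761042-118761291, minus strand): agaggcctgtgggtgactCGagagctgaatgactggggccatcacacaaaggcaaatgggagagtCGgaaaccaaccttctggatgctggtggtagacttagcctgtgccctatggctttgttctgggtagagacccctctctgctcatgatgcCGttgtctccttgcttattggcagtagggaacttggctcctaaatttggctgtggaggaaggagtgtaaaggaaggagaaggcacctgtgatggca
Over the whole 300-base window, to 50 bases past the start, the first Rbfox1 start had 3 CG, the second 7 and the Rbfox3 start 4. The observed over expected CpG was 0.144, 0.380 and 0.205, beside a median of 0.384 and of 7 CG over 32851 promoter windows. The first Rbfox1 and the Rbfox3 windows were thus poor in CpG: 23.3% and 31.4% of promoters had fewer CG. A CG occurred in 94.6% of all windows. The first Rbfox1 start lay at the 5′ end of the gene span, the second 1185 kb into it and the Rbfox3 start 151 kb into its span. All 3 windows lay in a consensus peak, as did 31.3% of all promoter windows.

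The family fell into a gene that was covered nearly throughout, one with scattered narrow peaks and one with none. Rbfox3 (chr11:118489760-118911597) had 88.6% of its 421838 bp in consensus peaks. Of the 323 other genes at least as long, 0 were covered more, 10 had no peak and the median coverage was 12.0%. The next in order were Slit3 at 86.9%, Car10 at 80.8%, Ephb1 at 80.1%, Shank2 at 79.9% and Asic2 at 78.5%. Chromosome 11, which carries Rbfox3, Slit3, Car10 and Asic2, held 11 of these long genes with a median of 34.4%, against 11.7% for the 312 on other chromosomes. The sources used here do not say on which libraries peaks were called, and the part of the higher chromosome 11 DNA described below in this coverage was not tested. High coverage is not unique to it among somewhat shorter genes: Celf4, a neuronal splicing regulator, had 94.6% of its span in peaks. Kcnip1, on chromosome 11, had 90.1%.

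Rbfox1 (chr16:5884793-7412480) is far longer, with 1527688 bp, and 18.9% of it lay in peaks. Of 13 other genes at least as long, 4 were covered more and the median was 11.7%. Rbfox2 (chr15:77078990-77308434, 229445 bp) had no peak, and the peaks on either side of it lay 15251 and 27722 bp away. This is not rare for its length, since 57 of 855 other genes at least as long had none, but the median coverage of these genes was 12.3%. As the count table holds reads in peaks only, no H3K27me3 level can be given for Rbfox2. The plot of coverage against gene length shows Rbfox3 near the top, Rbfox1 above the median of 12.3% and Rbfox2 at the bottom of the range.

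**Figure D1:**
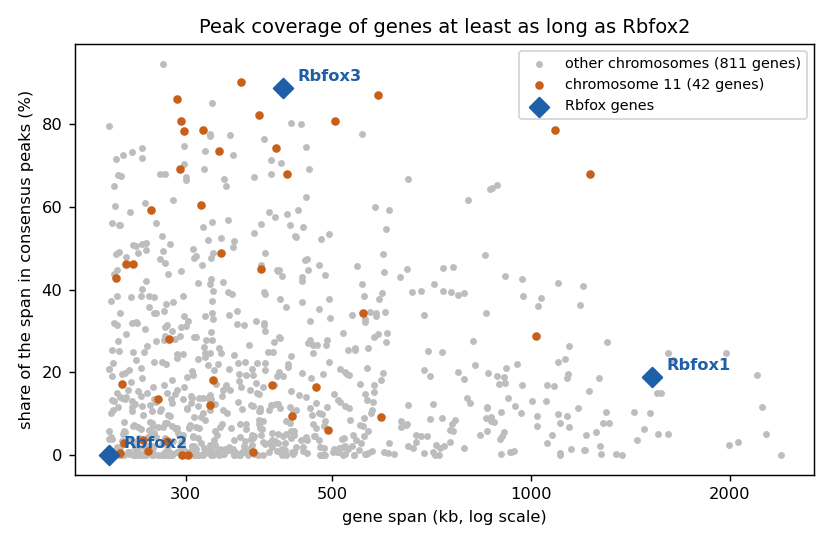
Share of each gene span in consensus peaks (percent) against gene span (kb, log scale) for genes at least as long as Rbfox2, with chromosome 11 genes in orange. Rbfox3 lies at 88.6%, Rbfox1 at 18.9% and Rbfox2 at 0.

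The peaks themselves differed in kind. At Rbfox3 they ran from 1051 to 107201 bp with a median of 17632 bp, and 6 of 15 were at least 20 kb wide. At Rbfox1 they ran from 332 to 24283 bp with a median of 2182 bp, and 1 of 87 reached 20 kb. The fold enrichment that the authors' peak caller gave to each peak had a median of 1.90 and a maximum of 3.10 at Rbfox3, and a median of 1.50 and a maximum of 2.25 at Rbfox1.

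H3K27me3 over input was computed per condition from CPM, which here are counts scaled to 1000000 counts in peaks, so that 1 is the average consensus peak and not the genomic background. In bulk chromatin, more cells with the mark and more mark per cell cannot be told apart. Condition by condition, the Rbfox3 ratio was 1.26 and 1.24 in WT control at 0 h and 48 h, 1.28 and 1.33 in WT transgene, 1.27 and 1.25 in cells labelled KO control, and 1.24 and 1.24 in KO transgene. All 8 values lay above 1. The Rbfox1 ratio was 0.993 and 0.957, 0.968 and 0.987, 0.951 and 0.973, and 0.930 and 0.957 in the same order. The lowest Rbfox3 value, 1.24, thus lay above the highest Rbfox1 value, 0.993, and no condition brought the genes near each other. The 95% exact binomial interval of a single ratio, which covers counting error only, ran for example from 1.22 to 1.31 at Rbfox3 and from 0.954 to 1.03 at Rbfox1 in WT control at 0 h.

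The Rbfox3 region, all its peaks summed, stood at 1.26 ± 0.0311 (SD, n = 8 conditions), above 86.1% of 18362 gene regions. Rbfox1 stood at 0.965 ± 0.0204, close to the median region at 0.967. Per length of peak, Rbfox3 had 2.78 ± 0.370 CPM per kb in H3K27me3 and 2.20 ± 0.311 in input, and Rbfox1 had 1.82 ± 0.0621 and 1.88 ± 0.0427. In edgeR's quasi-likelihood test with the condition as block, H3K27me3 over input at Rbfox3 was 0.34 ± 0.01 on the log2 scale (SE, adjusted p = 2.69e-27), with 28.7% of all regions called higher. Rbfox1 was called lower, at -0.05 ± 0.02 (adjusted p = 0.00466), as were 37.5% of regions, in a table whose median region was at -0.07. With TMM scaling in place of total counts the median region moved up by 0.16 and Rbfox1 was called higher, at 0.11. Relative to the median region Rbfox1 was at 0.02 and Rbfox3 at 0.41 under both scalings.

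Within Rbfox3 the mark was strongest in its widest peaks. The strongest was a 47.6 kb peak (chr11:118561048-118608602) that began 303 kb from the 5′ end of the span, at 1.74 ± 0.0726 over input (SD, n = 8) with a peak caller fold of 3.10. A 54.4 kb peak across the 5′ end of the span (chr11:118875964-118930321) followed at 1.43 ± 0.0592, and the widest, of 107 kb (chr11:118641783-118748984), stood at 1.30 ± 0.0408. The 23.1 kb peak over the promoter window (chr11:118750913-118774062) was lower, at 1.14 ± 0.0766. Of the 15 peaks, 7 had a ratio above 1, edgeR called 6 higher and 6 lower than input, and the lowest was at 0.683. Over all peaks 7.76% were called higher and 36% lower. The rank correlation of width with ratio was 0.954 over the 15 Rbfox3 peaks and 0.0594 over the 87 Rbfox1 peaks (Spearman; a description over peaks that share libraries, and in which wider peaks hold more counts).

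At Rbfox1 the peaks lay around the average. Their ratios ran from 0.646 to 1.45 with a median of 0.927, 27 of 87 were above 1, and edgeR called 4 higher and 22 lower than input. Only 43 had a mean of at least 50 H3K27me3 counts, so single narrow peaks are imprecise. The highest among these was a 7.38 kb peak (chr16:7034992-7042367) at 1.45 ± 0.283, followed by a 19.1 kb peak (chr16:6334979-6354113) at 1.28 ± 0.101 and a 2.38 kb peak (chr16:7148437-7150820) at 1.28 ± 0.162. The 2 annotated starts differed: the peak over the first (chr16:5877226-5901509, 24.3 kb) stood at 1.24 ± 0.128 and was called higher than input (adjusted p = 8.13e-11). The peak over the second (chr16:7068814-7071820, 3.01 kb) stood at 0.930 ± 0.304 and was not called (-0.19 ± 0.11 on the log2 scale, adjusted p = 0.149). Without the line labelled KO control it was called lower, at -0.37 ± 0.12 (adjusted p = 0.0115), and also without KO control at 48 h alone, at -0.29 ± 0.12 (adjusted p = 0.0431). The difference between these 2 peaks was not tested. The profile along the genes shows a few broad blocks at Rbfox3 and points around 1 at Rbfox1.

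**Figure D2:**
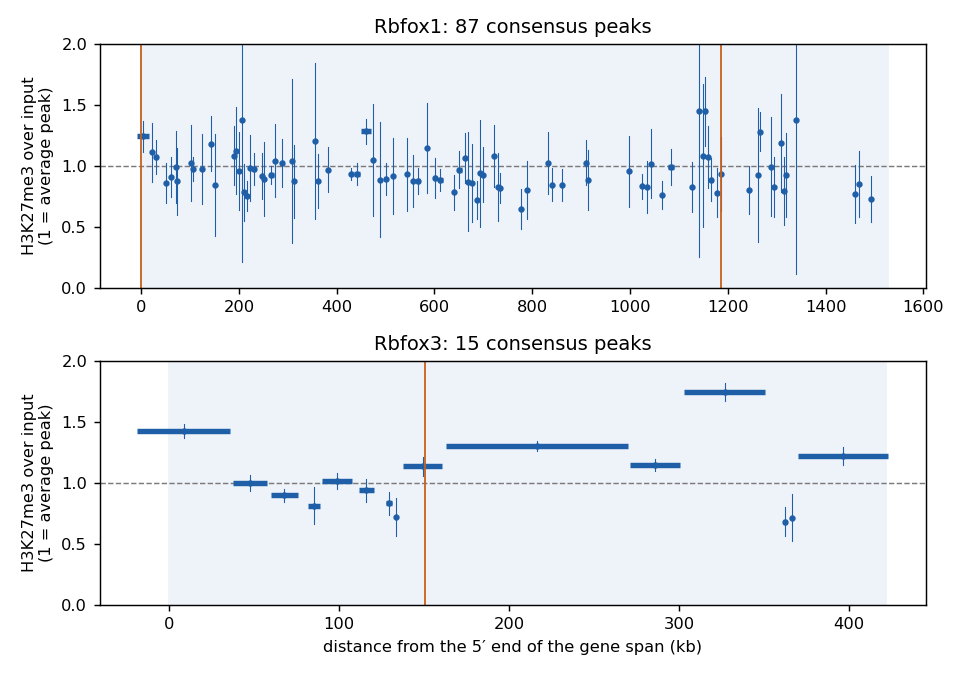
Mean H3K27me3 over input of each consensus peak (bars: peak width; thin lines: SD over 8 conditions, some running past the axis) against distance from the 5′ end of the gene span (kb), with the span shaded and annotated starts as orange lines. At Rbfox3 the 5 widest peaks lie between 1.15 and 1.74, while most Rbfox1 peaks lie near or below 1.

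Between KO and WT lines the Rbfox3 region differed, and its input differed as much. In WT control Rbfox3 had 959 CPM of H3K27me3 at 0 h and 956 at 48 h, and in WT transgene 963 and 1000.4. The cells labelled KO control had 1303 and 1285, and KO transgene 1116 and 1160. All 4 KO libraries lay above all 4 WT libraries, with the line labelled KO control highest and the WT lines close together. The share of all regions that separate in this way was not counted. Input gave 760, 769, 752 and 752 CPM in the WT libraries in this order and 1025, 1030.2, 903 and 934 in the KO libraries. Here too the line labelled KO control was highest and KO transgene next, while WT transgene lay below WT control.

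Over both times, Rbfox3 H3K27me3 in the line labelled KO control was 1.40 times that of WT control (95% exact binomial interval 1.38 to 1.43, on TMM-scaled library sizes), and its input 1.37 times (1.33 to 1.41). KO transgene stood at 1.22 (1.20 to 1.24) and 1.21 (1.18 to 1.25), and WT transgene at 1.04 (1.02 to 1.06) and 0.986 (0.958 to 1.01). In edgeR's additive model of background, transgene and time, KO exceeded WT at Rbfox3 by 0.36 ± 0.04 on the log2 scale in H3K27me3 (adjusted p = 1.03e-07) and by 0.37 ± 0.02 in input (adjusted p = 2.38e-26). Of all regions 10.2% were called higher in KO in H3K27me3 and 5.51% in input. The median of 1316 regions on chromosome 11 was 0.37 in H3K27me3 and that of 1315 regions 0.36 in input, so Rbfox3 sat near the middle of its chromosome in both.

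The difference beyond input, tested as the assay by background term over all 16 libraries, was -0.03 ± 0.03 at Rbfox3 (95% interval -0.08 to 0.02, adjusted p = 0.700), and 0.79% of regions were called higher and 0.251% lower. Leaving out the line labelled KO control reduced the KO difference to 0.22 ± 0.01 in H3K27me3 and to 0.30 ± 0.02 in input, both still called, and gave -0.08 ± 0.02 relative to input (adjusted p = 0.0445). That fit compares KO transgene with WT transgene and has 2 residual degrees of freedom. Its common dispersion, the fitted spread between libraries beyond counting error, was 9.77e-05. The p-value thus weighs the difference against little more than counting error. The ratio over input was 1.28 ± 0.0374 in WT and 1.25 ± 0.0154 in KO libraries (SD, n = 4 each).

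The 15 single peaks of Rbfox3 all lay above 0 in the KO against WT comparison of H3K27me3, between 0.27 and 0.61 with a median of 0.36. edgeR called 12 of 15 higher in KO in H3K27me3 and 10 of 15 in input, beside 3.8% and 1.85% of all peaks. Without the line labelled KO control 9 and 4 were called. Over all peaks that fit called 1446 of 102956 higher in H3K27me3 and 432 of 97438 in input, so calls fell in general. Among the largest called, a 2.43 kb peak (chr11:118548213-118550638) differed by 0.58 ± 0.14 (adjusted over all peaks), but not past the threshold with DESeq2, at 0.58 ± 0.21 (adjusted p = 0.277), or without the line labelled KO control, at 0.61 ± 0.20 (adjusted p = 0.122). The 47.6 kb peak with the strongest mark differed by 0.37 ± 0.04 in H3K27me3 and 0.39 ± 0.05 in input. The promoter peak differed by 0.40 ± 0.05 in H3K27me3 and 0.22 ± 0.06 in input. Relative to input, 0 of 15 passed by edgeR (1 at an unadjusted p under 0.05) and 0 by DESeq2, beside 0.07% of all peaks, so the gap between the assays at the promoter peak was not called. In the plot of the 2 assays against each other the peaks spread around the diagonal.

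**Figure D3:**
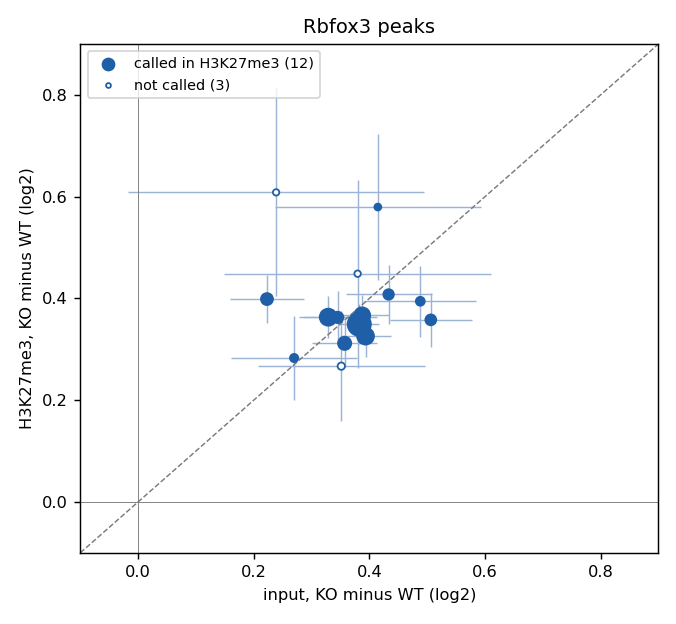
KO minus WT difference of each Rbfox3 peak (log2) in H3K27me3 against that in input, with bars of 1 SE, point area growing with peak width and the dashed line marking equal differences. All 15 peaks lie above 0 in both assays, and the large points cluster near 0.36.

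Rbfox1, on chromosome 16, showed no such gain. Its H3K27me3 was 566 and 546 CPM in WT control, 552 and 553 in WT transgene, 521 and 520 in cells labelled KO control, and 517 and 532 in KO transgene, so that the KO libraries were a few percent lower without overlap. Input was 570, 571, 570 and 560 CPM in WT and 548, 535, 556 and 556 in KO libraries, again without overlap. The share of all regions that separate in this way was not counted, so it cannot be read as particular to Rbfox1. On TMM-scaled library sizes the input groups overlapped, at 558.4 in KO transgene and 556.8 in WT transgene at 48 h. H3K27me3 on that scale stayed apart by little, with KO transgene at 533.7 and WT control at 534.6 at 48 h. The fitted difference of -0.05 ± 0.03 in H3K27me3 did not pass (adjusted p = 0.210), nor did -0.03 ± 0.02 in input (adjusted p = 0.716) or -0.03 ± 0.03 relative to input (adjusted p = 0.747). The H3K27me3 difference passed with total counts as library sizes, at -0.08 (adjusted p = 0.00757), and without the line labelled KO control, at -0.07 (adjusted p = 0.0225). With chromosome 11 left out of the scaling the difference was -0.04 ± 0.03 in H3K27me3 (adjusted p = 0.419) and -0.01 ± 0.02 in input (adjusted p = 0.958). No Rbfox1 peak was called by edgeR (0 of 87, with 8 at an unadjusted p under 0.05) or by DESeq2 (0), beside 4.42% of all peaks in either direction.

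**Figure D4:**
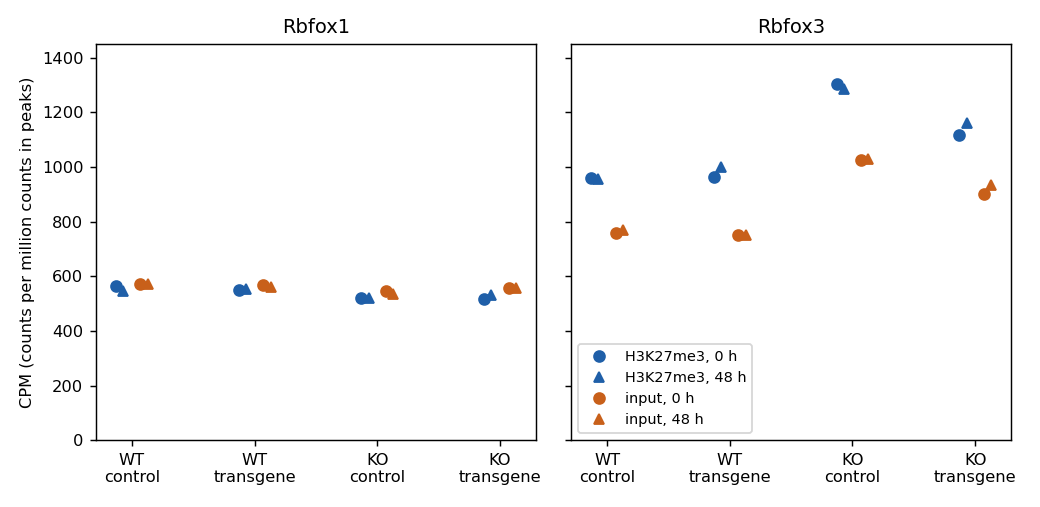
H3K27me3 (blue) and input (orange) of the summed Rbfox1 and Rbfox3 regions in CPM, 1 point per library, by line and time. Rbfox1 lies between 517 and 571 throughout, while Rbfox3 H3K27me3 lies between 956 and 1000.4 in WT and between 1116 and 1303 in KO libraries, and its input is also higher in KO.

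Between lines with and without the transgene, over both times, the Rbfox3 H3K27me3 difference did not pass (-0.08 ± 0.04, 95% interval -0.15 to -0.00015, adjusted p = 0.410, with 0.185% of regions called in either direction). The input was called lower, by -0.10 ± 0.02 (adjusted p = 0.0152, beside 0.23% of regions), and relative to input the difference was 0.03 ± 0.03 (adjusted p = 0.895). This comparison rested on the line labelled KO control. Without it the H3K27me3 difference turned to 0.06 ± 0.01 and was called (adjusted p = 0.000101). In that fit 803 of 18362 regions were called higher and 118 lower, against 5 and 29 with all lines. The common dispersion was 9.77e-05, against 0.000819 with all lines. The p-values of that fit thus weigh changes against little more than counting error. The transgene term of that fit compares WT transgene with WT control and includes 48 h values by which Rbfox3 was chosen. The call is therefore not independent of that choice. Without that line the input difference was -0.02 ± 0.02 (adjusted p = 0.977) and the difference relative to input was 0.08 ± 0.02 (adjusted p = 0.173). At Rbfox1 the values were 0.00 ± 0.03 in H3K27me3 (adjusted p = 0.993) and 0.01 ± 0.02 in input (adjusted p = 0.988). Of the 15 and 87 single peaks, 0 were called in H3K27me3 by edgeR (6 and 7 at an unadjusted p under 0.05) and 0 by DESeq2, beside 0.0748% of all peaks.

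Doxycycline for 48 h moved the 2 genes by a few percent at most. The 48 h over 0 h ratio of Rbfox3 H3K27me3 was 0.992 in WT control (95% exact binomial interval 0.968 to 1.02), 1.03 in WT transgene (1.01 to 1.06), 0.981 in cells labelled KO control (0.959 to 1.00) and 1.04 in KO transgene (1.02 to 1.06). Input gave 1.01, 0.998, 1.00 and 1.04, the last with an interval of 1.00 to 1.08. The H3K27me3 ratios at Rbfox3 are the values by which the gene was chosen, so their pattern over lines is a description, and the input ratio of KO transgene was also above 1. Rbfox1 gave 0.960 (0.930 to 0.992), 0.996, 0.993 and 1.03 (0.996 to 1.06) in H3K27me3, and 1.00, 0.981, 0.976 and 1.01 in input.

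With line as block, the time term was 0.02 ± 0.01 at Rbfox3 (adjusted p = 0.205) and -0.01 ± 0.01 at Rbfox1 (adjusted p = 0.865), beside 0.359% of regions called higher and 2.13% lower. Relative to input the values were 0.00 ± 0.03 (adjusted p = 1.00) and 0.01 ± 0.03 (adjusted p = 0.987). Without the line labelled KO control the Rbfox3 term was 0.03 ± 0.01 and was called (adjusted p = 0.0142), with 0.01 ± 0.02 relative to input (adjusted p = 0.968). As 2 of the 3 lines left carry the transgene, that term holds mostly the change by which Rbfox3 was chosen and supports nothing. No single peak was called for time in H3K27me3 by edgeR or DESeq2 (0 of 102, with 4 Rbfox1 and 0 Rbfox3 peaks at an unadjusted p under 0.05), beside 0.109% of all peaks.

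**Figure D5:**
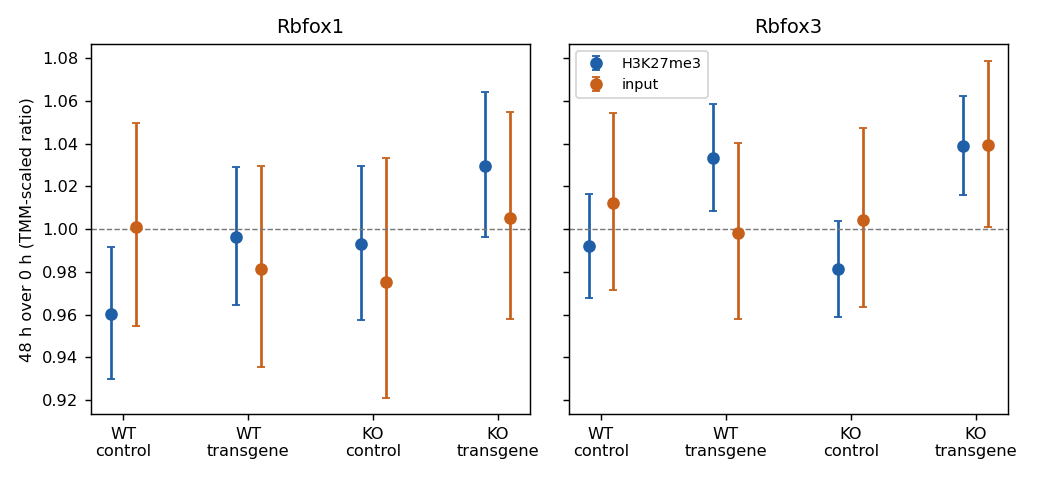
Ratio of 48 h to 0 h on TMM-scaled library sizes per line, with 95% exact binomial intervals of counting error, for H3K27me3 (blue) and input (orange). At Rbfox3 the H3K27me3 ratios of the transgene lines lie at 1.03 and 1.04 and those of the other lines at 0.992 and 0.981.

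The induction value, the 48 h over 0 h change in transgene lines minus that in the other lines, is what chose Rbfox3 and is given without a test. It was 0.07 ± 0.01 on the log2 scale at Rbfox3 and 0.05 ± 0.03 at Rbfox1. By background it was 0.06 in WT and 0.08 in KO at Rbfox3, and 0.05 and 0.05 at Rbfox1. KO transgene was set against the line labelled KO control, which was not free of extra Firre sequence. Without that line the Rbfox3 value was 0.06 ± 0.02. The Rbfox3 value itself is not high among regions: 4849 of 18362, or 26.4%, had a higher one. Its SE was small: 99.9% of regions had a larger one (median 0.12), and the mean of 14077 H3K27me3 counts at Rbfox3 compares with a median of 312. In input, which the choice did not use, the term was 0.02 ± 0.03 at Rbfox3 (adjusted p = 0.991) and 0.00 ± 0.04 at Rbfox1 (adjusted p = 0.999). By background the Rbfox3 input value was -0.02 in WT and 0.05 in KO.

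Other splicing regulators, not all of them tissue-restricted, gave a mixed picture. Of 31 listed genes, 24 had a peak, with a median ratio over input of 1.11 beside 0.967 over all regions. edgeR called 13 higher and 5 lower than input, beside 28.7% and 37.5% of all regions. The CELF genes, which encode GU-binding splicing factors, included Celf4 at 1.31 ± 0.0297 and Celf6 at 1.26 ± 0.0523, both called higher, and Celf2 at 0.891 ± 0.0436, called lower. Srrm3, which encodes an activator of neuronal microexons, stood at 1.34 ± 0.0939, and Khdrbs1, which encodes the ubiquitous protein SAM68, at 1.51 ± 0.135. The 7 genes without a peak were Celf1, Elavl1, Ptbp1, Ptbp2, Ptbp3, Mbnl1 and Qk. Ptbp1 encodes the repressor of neuronal exons in non-neuronal cells, and Ptbp2 its neural counterpart. Between KO and WT, 4 of the 24 were called higher in H3K27me3 (beside 10.2% of regions), Msi2 by 0.46 ± 0.12, Nova2 by 0.23 ± 0.05, Khdrbs1 by 0.20 ± 0.05 and Srrm3 by 0.13 ± 0.04. Msi2 lies on chromosome 11, whose median region differed by 0.37. Elavl3, by -0.33 ± 0.06, and Mbnl3, by -0.33 ± 0.09, were called lower, as were 1.85% of regions. Nova2, a neuronal splicing factor, was the only one called relative to input, by 0.28 ± 0.07, beside 0.79% of regions called higher. In time, Khdrbs2 was lower by -0.11 and no other member was called, beside 2.13% of regions called lower.

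Of 8 proteins of the large assembly of splicing regulators (LASR), which binds RBFOX proteins, 1 gene had a peak, Hnrnph1 on chromosome 11, which was called lower than input (adjusted p = 0.00285). Of 16 other genes of mature neurons, 13 had a peak, beside 20257 of 34328 genes in all. Their median ratio was 1.08, with 6 called higher and 2 lower than input, beside 28.7% and 37.5% of all regions. Among them were Slc17a7, a vesicular glutamate transporter gene, at 1.66 ± 0.0972, and Map2, a dendritic microtubule protein gene, at 0.875 ± 0.0456. In KO against WT 1 of the 13, Nefl, was called higher in H3K27me3, by 0.21 ± 0.05, as were 10.2% of all regions. As markers of other cell types, 8 of 10 fibroblast genes and 6 of 6 primitive endoderm genes had a peak, with median ratios of 1.31 and 1.37.

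The neighbourhoods of the 3 genes were covered unequally. Within 500 kb of Rbfox3, 30 of 36 genes had a peak, in 26 regions, and the median gene was covered to 65.8%. All 26 regions were called higher in KO in H3K27me3 (median 0.37) and 24 in input (median 0.37), while 0 were called relative to input. Over all regions 10.2% and 5.51% were called higher, and 0.79% higher and 0.251% lower relative to input. The median region of chromosome 11 was itself at 0.37 in H3K27me3 and 0.36 in input. Cbx2, which lies within 500 kb of Rbfox3 and encodes a subunit of Polycomb repressive complex 1, stood at 1.80 ± 0.127 over input. It was 1 of 2 among the 26 regions called lower at 48 h in H3K27me3, beside 2.13% of all regions. Within 500 kb of Rbfox2, 27 of 48 genes had a peak and the median coverage was 0, with 7 of 25 regions called higher and 8 lower than input. These shares lie near those of all genes with a peak and of all regions called, 28.7% and 37.5%. Around Rbfox1, 7 of 8 neighbours, all lncRNA genes, had a peak. Among 59 other genes with peaks and a span of at least 1 Mb the median ratio was 0.947, with 9 called higher and 37 lower than input (28.7% and 37.5% of all regions), and Rbfox1 stood at 0.965.

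Over the 8 conditions, the regions whose log2 ratio over input was most like that of Rbfox3 were Kcnt1 (Pearson r = 0.963), Cadps2 (0.909), Loxhd1 (0.909), the region shared by Adcy4, Ltb4r1, Ltb4r2, Ripk3 and Gm32092 (0.906) and Sdk2 (0.893). For Rbfox1 they were Gpr176 (0.919), the region of Lpo and Mpo (0.890), Gm30373 (0.888), Trim58 (0.886) and Gm11753 (0.880), the last a neighbour of Rbfox3. These are the highest of 3455 regions over 8 points that share libraries, and are given as a description.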

How the data were processed

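Tools named in the submitters' processing notes, with no role stated, are DESeq2 1.26.0, featureCounts, MACS2 2.2.71 and BWA 0.7.17-r1188, beside the build mm10. Raw read counts for each library and consensus peak, as whole numbers, are the authors' deposited values. A second table deposited by the authors describes each peak, not a library, by a score, the fold enrichment of the peak caller and a −log10 q-value. It does not state the base from which starts count, so they are printed unchanged.

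Peaks were assigned to protein-coding and lncRNA gene spans with 2000 bp on either side, from a RefSeq table of GRCm38.p6, and summed into 18362 regions for 20257 genes. Genes with the same peaks share a region, and overlapping genes share reads. The table gave no exons or UTRs. Tests used edgeR 4.0.16 in R 4.3.3, a quasi-likelihood F test with filterByExpr, TMM factors from the peaks (total counts for H3K27me3 over input) and Benjamini-Hochberg adjustment at 0.05 over all regions or all peaks. The additive and relative models had 4 residual degrees of freedom, the time model 3, the induction model 2 and the enrichment model 7. Errors of log2 values are SEs of the fit. The common dispersion was 0.000819 in the additive H3K27me3 fit of regions. It was 9.77e-05 in the time and induction fits of regions. The H3K27me3 fits of regions without the line labelled KO control also had 9.77e-05. The fits were tested on simulated data. Alternatives were other scalings, DESeq2 1.42.0, other windows, a minimum mean count of 50, summed times and each library left out. The fit without the line labelled KO control, and the transgene and time terms of input, were added after the data were seen.

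The genes, lists and tests were chosen with earlier results of these data known. Named peaks were, per gene, the 3 with the highest ratio among those with a mean of at least 50 counts, those at promoter windows, and at most 5 called per contrast. Named list genes were those past the threshold, with examples chosen after their values were seen. Like regions were the 5 with the highest Pearson r among those with a mean of at least 1000 counts.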

Additional observations from a re-analysis of the deposited data

Results flagged for a closer look

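Within each background the 4 libraries were compared for 1 value standing far from the other 3, in 12 groups, where chance gives about 1 in 20. Rbfox3 H3K27me3 in WT transgene at 48 h, at 1000.4 CPM, stood above the other WT libraries, which lay between 956 and 963. This value enters the induction difference by which Rbfox3 was chosen, so the chance rate does not apply to it. Rbfox1 input in WT transgene at 48 h, at 559.9 CPM, stood below the other WT libraries, which lay between 570 and 571. Both values came from the same condition, and the lines were not replicates of each other.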

How the results depend on the processing

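No paired analysis by replicate number was possible, because every group has 1 replicate and replicate numbers pair no libraries. Libraries were matched by condition and by line instead, as blocks of the fits. Without the line as block the time values were 0.014 at Rbfox3 and -0.0084 at Rbfox1, neither called. The Rbfox3 gain in KO was called under every alternative run, between 0.22 and 0.40 in H3K27me3. Rbfox1 in KO against WT passed in H3K27me3 with total counts as library sizes, at -0.085, and without the line labelled KO control, at -0.065. Rbfox1 over input reversed from -0.05 to 0.11 with TMM factors, by which 8434 regions were called higher and 2249 lower in place of 5263 and 6886, and 1 Rbfox3 peak (chr11:118835881-118851893) moved from -0.16 to 0.0055. The calls over input at the 87 Rbfox1 peaks were 6 higher and 1 lower with TMM and 3 and 4 with DESeq2, in place of 4 and 22, and at the 15 Rbfox3 peaks 8 and 1 with TMM and 6 and 4 with DESeq2, in place of 6 and 6. Over all peaks TMM called 14226 higher and 10095 lower of 102920. DESeq2 called 6050 and 17329 of 102923, in place of 7988 and 37015.

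Rbfox3 input in transgene lines lost its call with DESeq2 (-0.10), with the times of a line summed (-0.10) and without the line labelled KO control (-0.021), and ran from -0.12 to -0.072 when single libraries were left out, losing it without either library of the line labelled KO control or of KO transgene. Without the line labelled KO control, transgene in H3K27me3 at Rbfox3 reversed to 0.060, KO against WT relative to input passed at -0.083, time passed at 0.031, and 4 in place of 10 Rbfox3 peaks were called in input. Those transgene and time values include 48 h values by which Rbfox3 was chosen. Over all peaks, 432 in place of 1831 were called higher in KO in input without that line. Time at Rbfox3 also passed with total counts (0.022) and ranged from 0.0022 to 0.031 with single libraries left out, passing without either library of the line labelled KO control. The Rbfox1 induction value ranged from 0.026 to 0.078, lowest without WT control at 48 h. Causes of these changes were not tested. The other 400 values recomputed for the 2 regions and the counts of called peaks stayed on their side of the threshold or near the reported count, 35 of them, not called, with the other sign. Of the values for named single peaks 633 stayed on their side, 16 of them, not called, with the other sign, while 19 lost a call, 2 gained one and 1 reversed. With 1 library per condition, spread between cultures cannot be estimated.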
